A study of Mus musculus with 6 samples.

Results

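The 34 macrophage and monocyte genes described here were a list of names chosen with earlier results of these data known. All 34 were found among the 20687 gene symbols of the deposited table. They were read in 3 Lung_KP samples and 3 CellLine_KP samples of a series that set chemokine expression in lung tissue with KP tumours beside that in the KP cell line itself. Each Lung_KP sample was RNA of collagenase-digested lung, pooled from 3 C57BL/6 mice injected through the tail vein with 100000 KP cells 28 days before harvest, and the 3 samples came from separate experiments. The CellLine_KP samples were 3 RNA preparations of the KP line, a mouse lung tumour line also labelled C57BL/6. The labels state neither the genotype of the line nor the age of the mice, and no lung free of tumour was analysed here. They give the injection and lung digestion protocol for the cell line samples too, so how the line was handled before extraction is not known. Nothing says that the 3 cell line preparations were cultured separately, so a p-value here rests on a spread that may be technical in that group.

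Lung holds several mononuclear phagocytes. Alveolar macrophages live in the air spaces, clear surfactant lipid and depend on GM-CSF and the nuclear receptor PPARγ. Interstitial macrophages sit in the tissue around vessels, bronchi and nerves, and monocytes from the blood patrol the lung vessels and enter the tissue, tumours included, where they can become macrophages. The list held 10 genes linked with alveolar macrophages, 5 with interstitial macrophages, 6 of monocytes and Fc receptors, 7 shared by most macrophages, 3 of lipid handling and phagocytosis, and 3 made up of 2 C-type lectins and Retnla. Several are also made elsewhere, and for some of them values for those other cells stand beside them below. The part of other cells in the level of any gene was not tested. In bulk samples such as these, fewer cells of a type and less RNA per cell cannot be told apart.

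Estimated counts summed to between 17786758 and 22862396 per sample, and a count of 0 allowed up to 3 counts, or 0.132 to 0.169 CPM. Levels are CPM, counts scaled to a TMM-adjusted library size, and a log2 fold change is lung over cell line, fitted with edgeR's quasi-likelihood test. A gene was called higher or lower in lung at a Benjamini-Hochberg adjusted p below 0.05 over the 15212 genes tested. Lung replicate 2 and cell line replicate 1 stood apart within their groups. Across the tested genes, which are not independent replicates, log2 CPM correlated at 0.939 and 0.915 between lung replicate 2 and the other lungs and at 0.986 between those, and at 0.964 and 0.963 between cell line replicate 1 and the other preparations and at 0.997 between those. Lung identity was checked on Sftpc, the surfactant gene of alveolar type 2 cells, which had 8370 to 16000 CPM in lung, against 2 counts in all over the cell line.

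Of the 34 genes, 30 were higher in lung, against 31.3% of all tested genes. Pparg alone was lower in lung, against 17.5% of all tested genes, so that 31 passed the threshold in either direction, against 48.8% of all tested genes. Plac8, Mrc1 and Gpnmb did not pass the threshold. The 3 lung values and the 3 cell line values did not overlap for 31 of the 34 genes, 30 with lung above and 1 with lung below. Of all tested genes, 62.2% did not overlap, 35.6% with lung above and 26.5% with lung below. All 34 passed the expression filter, though 14 of them had fewer than 10 counts in at least 1 sample and so were kept through the group in which they were high. The median log2 fold change was 5.55 over the 34 genes, against 0.08 over all genes tested. A log2 fold change of 4 or more was found for 24 of the 34 genes and for 14.5% of all genes tested. Because the list was chosen with earlier results of these data known, these comparisons with all genes are a description. Summed over the list, the level was 10150 ± 1436 CPM in lung, against 613 ± 122 CPM in the cell line (SD, n = 3 each).

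**Figure D1:**
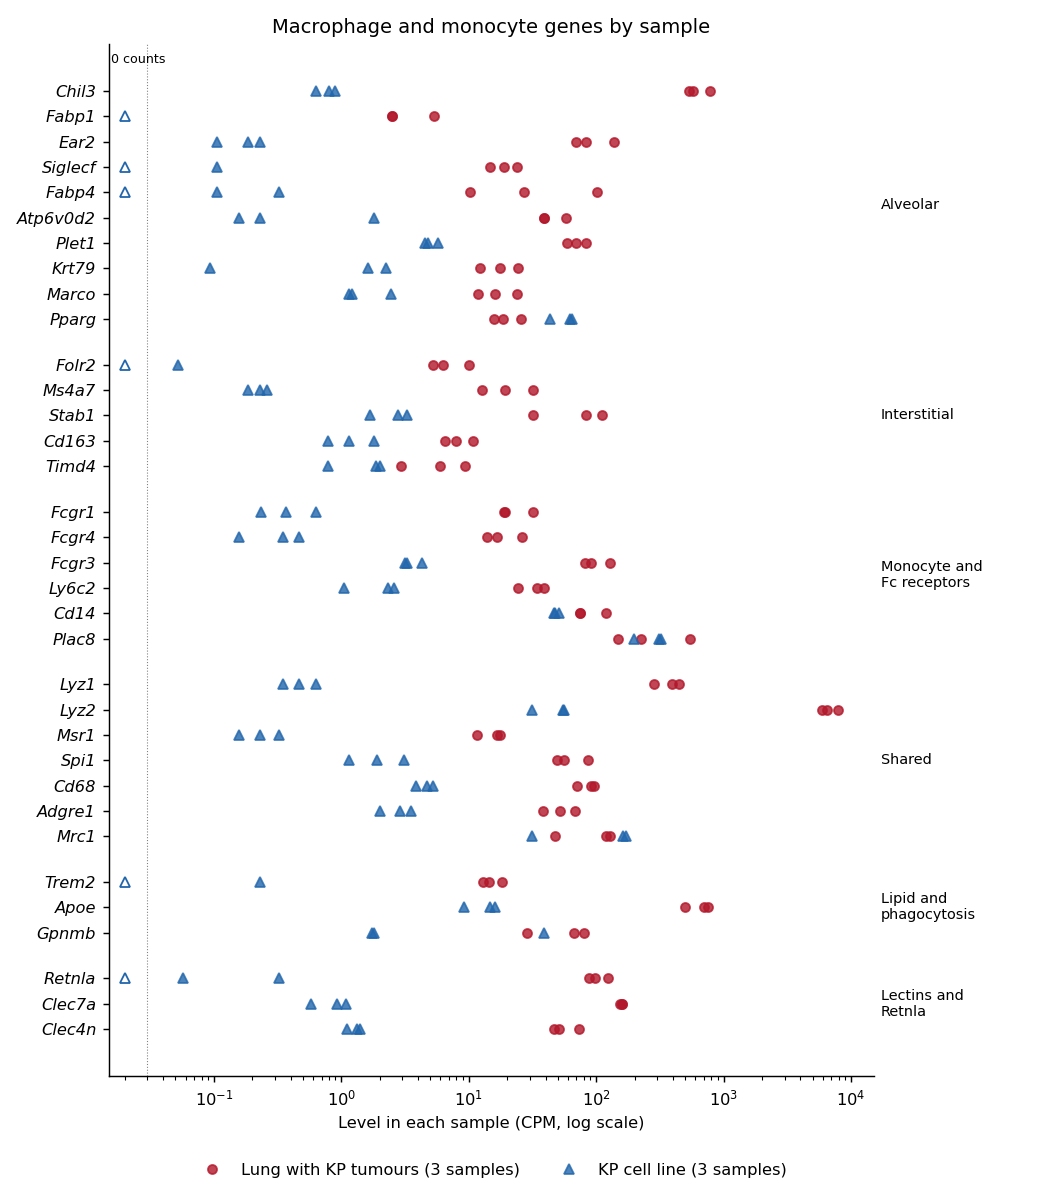
Level of each of the 34 genes in every sample, in CPM on a log axis, grouped by role, with lung samples as red circles and cell line samples as blue triangles. Open triangles left of the dotted line are cell line samples with 0 counts, and the 2 groups of points are separate for 31 genes and overlap for Plac8, Mrc1 and Gpnmb.

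The genes linked with alveolar macrophages covered the widest range of the list. Of 10, 9 were higher in lung and 1, Pparg, was lower. Chil3, a secreted chitinase-like lectin of alveolar macrophages, stood at 578, 532 and 775 CPM in lung replicates 1, 2 and 3, against 0.887, 0.806 and 0.632 CPM in the cell line. It had the largest fitted fold change of the group and of all 34 genes, with a log2 fold change of 9.65 (SE 0.40, adjusted p = 1.18e-05). Ear2, an eosinophil-associated ribonuclease that alveolar macrophages and monocytes also make, had 83.0, 137 and 69.0 CPM in lung, against 0.187, 0.230 and 0.105 CPM in the cell line, and a log2 fold change of 9.07 (SE 0.49, adjusted p = 1.76e-05). Ear2 and Chil3 each belong to families of near-identical genes, so the split of reads between relatives is uncertain.

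Siglecf, a sialic acid-binding receptor that marks alveolar macrophages and eosinophils, had 18.9, 14.8 and 23.9 CPM in lung. In the cell line it had 2 counts in all, both in replicate 3, so the ratio of counts was 548 with a 95% exact interval of 151 to 4526, for counting error alone. The fitted log2 fold change of 8.88 (adjusted p = 4.88e-05) was 8.29 when replicate 1 of the line was left out and 11.65 when replicate 3 was. The eosinophil granule gene Epx was nearly absent from lung, at 0.160, 0.0885 and 0.519 CPM, and 2 of the 4 tested eosinophil markers were higher in lung, 1 was not past the threshold and 1, Il5ra, was lower. Summed over the 5 markers, the level was 21.1 to 25.5 CPM in lung, against 28.4 to 518 CPM in the cell line, most of it Il5ra, the receptor chain for interleukin 5, which held 25.7, 494 and 517 CPM in cell line replicates 1, 2 and 3.

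Marco, a scavenger receptor for bacteria and particles, had 11.7, 15.9 and 23.95 CPM in lung, against 2.47, 1.21 and 1.16 CPM in the cell line. Plet1, a surface protein of alveolar macrophages and of some epithelia, had 59.0, 68.9 and 83.0 CPM in lung, against 4.57, 5.76 and 4.79 CPM in the cell line. These were among the smaller differences of the group, with log2 fold changes of 3.40 (SE 0.45, adjusted p = 0.000467) for Marco and 3.8 (SE 0.27, adjusted p = 3.45e-05) for Plet1. Krt79, a keratin that is also a marker of alveolar macrophages in mouse, had 12.2, 24.3 and 17.5 CPM in lung, against 0.0933, 2.25 and 1.63 CPM in the cell line, so cell line replicate 1 lay far below the other preparations while all 3 lungs lay above them. Its log2 fold change was 3.78 (SE 0.81, adjusted p = 0.00540).

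Atp6v0d2, a subunit of the proton pump that acidifies lysosomes, had 39.0, 39.2 and 57.9 CPM in lung, against 1.82, 0.230 and 0.158 CPM in the cell line. Cell line replicate 1 held 9.37 times the mean of the other preparations, and the log2 fold change of 5.89 (SE 0.81, adjusted p = 0.000580) was 7.82 without it. Fabp1, a fatty acid-binding protein best known from liver and gut, had 2.52, 5.31 and 2.49 CPM in lung and 0 counts in the cell line, and was at least 66.5-fold higher in lung against 3 counts over the group.

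Fabp4, the fatty acid-binding protein of adipocytes, macrophages and capillary endothelium, had 10.2, 101 and 27.2 CPM in lung, against 0.327, 0 and 0.105 CPM in the cell line. All 3 lungs were above all 3 preparations, and lung replicate 2 held 5.39 times the mean of the other lungs. The log2 fold change of 8.18 (SE 1.18, adjusted p = 0.000734) was 6.82 without lung replicate 2, and 9.55 and 7.59 when replicate 1 or 2 of the line was left out. Adipocyte markers, a list added after the values of Fabp4 were seen, followed the same order among the lungs. Their summed level was 28.6, 372 and 115 CPM in lung replicates 1, 2 and 3, and 0.346 to 0.513 CPM in the cell line, where 3 of the 8 (Plin1, Pck1 and Lep) were at 0 counts. Of the 5 that passed the expression filter all were higher in lung, among them Adipoq, which encodes adiponectin, at 1.64, 24.3 and 7.27 CPM, and Cfd, which encodes adipsin, at 11.0, 192 and 45.1 CPM. All 7 endothelial markers were higher in lung too, with sums of 935 to 2066 CPM in lung, against 22.02 to 27.2 CPM in the cell line, and the lowest lung value in replicate 2. The part of either cell type in the Fabp4 level was not tested.

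All 5 genes linked with interstitial macrophages were higher in lung. Stab1, a scavenger receptor of perivascular macrophages and of sinusoidal endothelium, had 82.7, 31.8 and 110.0 CPM in lung, against 3.27, 2.77 and 1.69 CPM in the cell line. Lung replicate 2 held 0.330 times the mean of the other lungs and still lay above every cell line value. Ms4a7, a membrane protein of tissue macrophages, had 19.1, 31.8 and 12.8 CPM in lung, against 0.187, 0.230 and 0.263 CPM in the cell line. The log2 fold changes were 4.86 for Stab1 (SE 0.54, adjusted p = 0.000193) and 6.52 for Ms4a7 (SE 0.50, adjusted p = 4.29e-05).

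The other 3 interstitial genes were low in lung. Folr2, a folate receptor of resident macrophages, had 5.23, 10.1 and 6.23 CPM in lung and 1 count in the cell line, in replicate 3, a ratio of 415 with a 95% exact interval of 74.0 to 16410 for counting error alone. Its fitted log2 fold change, the largest of the group, was 8.27 (adjusted p = 9.04e-05), and 10.23 without cell line replicate 3. Cd163, the scavenger receptor for haptoglobin bound to haemoglobin, averaged 8.38 ± 2.12 CPM in lung, against 1.25 ± 0.522 CPM in the cell line (SD, n = 3 each), with a log2 fold change of 2.73 (adjusted p = 0.00111). Timd4, a receptor for phosphatidylserine on dying cells, had 2.96, 9.29 and 5.92 CPM in lung, against 1.87, 2.02 and 0.790 CPM in the cell line. Its log2 fold change of 1.95 (SE 0.55, adjusted p = 0.0186) was the smallest of the group, and the call was lost without lung replicate 2 (1.45, adjusted p = 0.0597) and without cell line replicate 3 (1.58, adjusted p = 0.0619).

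Among the 6 monocyte and Fc receptor genes, 5 were higher in lung and Plac8 did not pass. The 3 Fc receptor genes, which encode receptors for the constant part of IgG, were all higher in lung. Fcgr3, the low-affinity receptor, had 81.4, 129 and 91.6 CPM in lung, against 4.29, 3.17 and 3.27 CPM in the cell line. Fcgr1, the high-affinity receptor, had 18.7, 31.9 and 19.2 CPM in lung, against 0.233, 0.634 and 0.369 CPM in the cell line. Fcgr4, a receptor for IgG2 subclasses found on monocytes, macrophages and neutrophils, had 16.6, 26.0 and 13.8 CPM in lung, against 0.467, 0.346 and 0.158 CPM in the cell line. Lung replicate 2 was the highest lung for all 3, and no lung value came near a cell line value. The log2 fold changes were 4.81 for Fcgr3 (SE 0.32, adjusted p = 3.06e-05), 5.83 for Fcgr1 (SE 0.47, adjusted p = 5.11e-05) and 5.82 for Fcgr4 (SE 0.49, adjusted p = 5.99e-05). Compared per length as TPM (estimated counts divided by transcript length and rescaled to 1 fixed sum in each sample), the levels in lung were 135 ± 10.2 for Fcgr3, 26.6 ± 3.33 for Fcgr4 and 18.2 ± 3.54 for Fcgr1 (SD, n = 3), with no overlap between any pair of the 3 genes across the lung samples.

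Ly6c2, a surface protein of inflammatory monocytes with a near-identical neighbour, Ly6c1, had 24.3, 38.9 and 34.6 CPM in lung, against 2.57, 2.30 and 1.05 CPM in the cell line, and a log2 fold change of 4.04 (SE 0.41, adjusted p = 0.000128). Cd14, the co-receptor for bacterial lipopolysaccharide, had 74.9, 119 and 74.2 CPM in lung, against 50.6, 47.2 and 46.7 CPM in the cell line. The 2 groups of Cd14 values did not overlap, but the difference was small, with a log2 fold change of 0.89 (SE 0.27, adjusted p = 0.0240). The call on Cd14 was lost when replicate 2 of the line (adjusted p = 0.117) or replicate 3 (adjusted p = 0.109) was left out. Neutrophil markers, which bear on the Fc receptors and Cd14 since neutrophils also carry them, were higher in lung for all 8 of 9 that passed the filter, with sums of 208 to 352 CPM in lung, against 3.53 to 5.79 CPM in the cell line. The ninth, Ly6g, was at 0.265 to 0.675 CPM in lung. Their part in these levels was not tested.

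Of the 7 genes shared by most macrophages, 6 were higher in lung and Mrc1 did not pass. Spi1, which encodes PU.1, the transcription factor that macrophage development requires, had 49.0, 86.2 and 55.6 CPM in lung, against 3.08, 1.90 and 1.16 CPM in the cell line. Adgre1, which encodes the surface antigen F4/80, had 51.7, 38.0 and 67.9 CPM in lung, against 3.50, 2.88 and 2.002 CPM in the cell line. Cd68, a lysosomal membrane glycoprotein, had 70.9, 91.6 and 96.7 CPM in lung, against 5.23, 4.67 and 3.85 CPM in the cell line. Each lung value of these 3 genes was more than 10 times the highest cell line value, and the log2 fold changes were 4.95 for Spi1 (SE 0.45), 4.23 for Adgre1 (SE 0.36) and 4.23 for Cd68 (SE 0.28), with adjusted p-values of at most 7.90e-05. Msr1, the class A scavenger receptor, had 16.8, 11.63 and 17.7 CPM in lung, against 0.327, 0.230 and 0.158 CPM in the cell line, and a log2 fold change of 5.96 (SE 0.42, adjusted p = 3.50e-05).

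Lyz2 and Lyz1 encode the M and P lysozymes, which cut bacterial cell walls. Lyz2 is made by macrophages, monocytes, neutrophils and alveolar type 2 cells, and Lyz1 is known from Paneth cells of the gut. Their promoters are shown because the pair lies side by side and shares most of its sequence there. The 100 bases from 150 to 51 bases before each RefSeq start, on GRCm38.p6, lie at chr10:117282323-117282422 (Lyz2) and chr10:117292919-117293018 (Lyz1), both on the minus strand. Capitals mark the core motif of PU.1, AGGAAGT, found here on the opposite strand.
Lyz2: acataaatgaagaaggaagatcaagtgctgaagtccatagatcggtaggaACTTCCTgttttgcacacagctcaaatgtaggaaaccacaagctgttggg
Lyz1: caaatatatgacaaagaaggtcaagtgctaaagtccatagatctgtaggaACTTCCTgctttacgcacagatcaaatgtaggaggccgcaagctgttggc
The windows were identical at 83.2% of 101 aligned columns, and the 100 bases before them at 63.7%. Each held the motif once, with its near end 94 bases before the start. Searched on both strands in the 250 bases before a start, AGGAAGT was present for 9 of the 27 genes of the list with a window (33.3%), namely Chil3, Folr2, Ly6c2, Fcgr1, Fcgr4, Lyz1, Lyz2, Mrc1 and Retnla, and for 8.80% of 27025 genes. A match of these letters is a description and shows no binding.

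Lyz2 had 5919, 7943 and 6413 CPM in lung, against 56.2, 55.1 and 31.4 CPM in the cell line. Lyz1 had 285, 449 and 393 CPM in lung, against 0.467, 0.346 and 0.632 CPM in the cell line. All lung values were far above all cell line values for both, with log2 fold changes of 7.15 for Lyz2 (SE 0.46, adjusted p = 2.84e-05) and 9.58 for Lyz1 (SE 0.42, adjusted p = 1.18e-05). The cell line held 0.704% of the lung level of Lyz2 and 0.128% of that of Lyz1. Both genes are similar enough along their transcripts that the split of reads between them is uncertain. Alveolar type 2 markers moved with them, higher in lung for all 7, with sums of 14530 to 20910 CPM in lung, against 84.3 to 92.4 CPM in the cell line, where Abca3 made up nearly all of it and Sftpa1 and Slc34a2 were at 0 counts. The part of those cells in the lysozyme levels was not tested.

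Of 3 genes of lipid handling and phagocytosis, 2 were higher in lung and Gpnmb did not pass. Apoe, the apolipoprotein that carries cholesterol out of macrophages, had 697, 756 and 499 CPM in lung, against 16.0, 14.6 and 9.11 CPM in the cell line, with a log2 fold change of 5.62 (SE 0.38, adjusted p = 3.09e-05). Trem2, a lipid-sensing receptor of macrophages that is also studied on tumour-associated macrophages, had 14.5, 18.1 and 12.8 CPM in lung. In the cell line Trem2 had 4 counts in all, all in replicate 2, and 0 in the others. Its log2 fold change of 7.63 (SE 0.82, adjusted p = 0.000172) was 11.31 without cell line replicate 2, and 7.003 and 7.02 when replicate 1 or 3 of the line was left out.

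All 3 genes of the last group were higher in lung. Clec7a encodes Dectin-1, the receptor for fungal β-glucan, and had 152, 160.2 and 159 CPM in lung, against 0.933, 1.09 and 0.580 CPM in the cell line, at a log2 fold change of 7.49 (SE 0.35, adjusted p = 1.18e-05). Its transcripts took unlike shares in the lungs. In lung replicate 2 Clec7a-201 took 63.1% of the estimated counts of the gene, against 13.3% and 15.9% in lung replicates 1 and 3. Clec7a-204 took 31.9% there, against 80.3% and 75.6%. GENCODE M21 labels Clec7a-201 protein coding and Clec7a-204 a polymorphic pseudogene. Both have 732 coding bases, at lengths of 2277 and 2272 bases, so the split of reads between them is uncertain. Clec4n encodes Dectin-2, a receptor for fungal mannans, and had 51.1, 72.9 and 46.6 CPM in lung, against 1.4, 1.33 and 1.11 CPM in the cell line, at a log2 fold change of 5.47 (SE 0.32, adjusted p = 2.23e-05). Retnla, a small secreted protein induced by interleukin 4 and 13, had 88.2, 98.3 and 125 CPM in lung, against 0.327, 0.0576 and 0 CPM in the cell line. No lung value of either gene came near a cell line value. The log2 fold change of Retnla was 9.51 (SE 0.71, adjusted p = 3.88e-05), or 11.58 and 8.91 when replicate 1 or 3 of the line was left out.

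**Figure D2:**
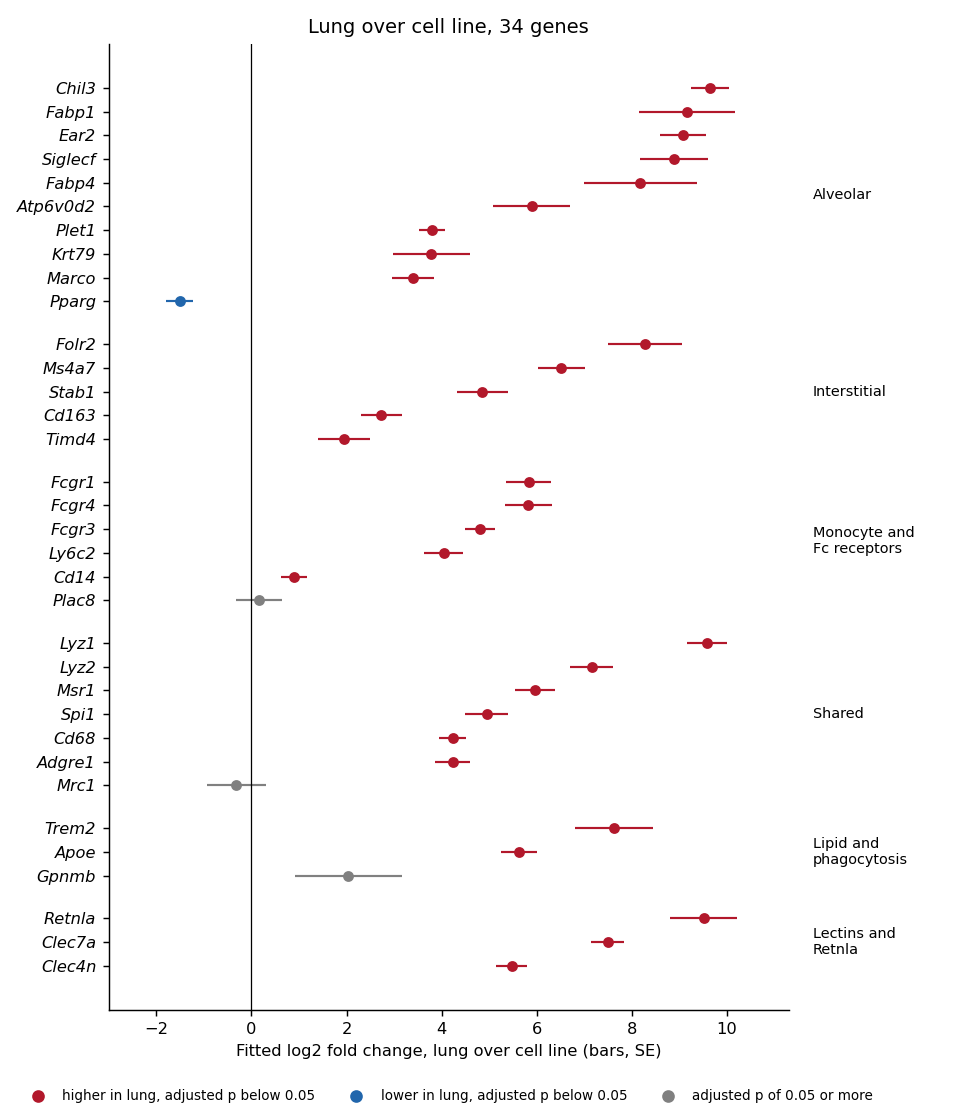
Fitted log2 fold change of lung over cell line for the 34 genes, with bars for the SE, grouped by role and sorted within each group. Fabp1, at 0 counts in the cell line, is drawn at its fitted value of 9.16 (SE 1.02) and not at its lower bound. Red points are the 30 genes higher in lung, the blue point is Pparg, lower at -1.51, and the grey points are Plac8, Mrc1 and Gpnmb, whose bars for the first 2 cross 0.

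Of these groups, the alveolar genes had a larger median fold change than the interstitial genes or the monocyte and Fc receptor genes, as medians of short lists with no test of the difference. The median log2 fold change was 7.04 over the 10 alveolar genes (5.97 with Fabp1 at its lower bound), against 4.86 over the 5 interstitial genes and 4.42 over the 6 monocyte and Fc receptor genes. Over those 11 together it was 4.81, and 10 of the 11 were higher in lung. The alveolar median was 8.06 without cell line replicate 1 and 6.37 without lung replicate 2, where the interstitial median was 5.06 and 5.17, and with each sample left out in turn the alveolar median ran from 6.37 to 8.06 and the interstitial one from 4.47 to 5.17. The alveolar genes ranged from -1.51 to 9.65, so the lists overlapped over most of their range. Several alveolar folds rested on few cell line counts, as for Siglecf (2), Fabp4 (9) and Ear2 (10). A stricter fit kept genes with at least 10 counts in every sample. Its alveolar log2 fold changes were 9.84 (Chil3), 3.99 (Plet1), 3.59 (Marco) and -1.31 (Pparg). Interstitial values were 5.04 (Stab1), 2.91 (Cd163) and 2.16 (Timd4). Monocyte and Fc receptor values were 5.01 (Fcgr3), 4.23 (Ly6c2), 1.09 (Cd14) and 0.36 (Plac8). Group medians were not taken there.

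In summed level, the alveolar genes gave 833, 964 and 1096 CPM in lung replicates 1, 2 and 3, against 53.6, 72.9 and 73.8 CPM in the cell line. The interstitial genes gave 118, 89.6 and 146 CPM in lung, against 7.14, 6.16 and 3.58 CPM in the cell line. The monocyte and Fc receptor genes gave 442, 893 and 380.5 CPM in lung, against 255, 376 and 361 CPM in the cell line. Per length, alveolar genes made up 53.1% ± 11.0 of the 3 sums in lung (SD, n = 3). In CPM, where longer transcripts weigh more, they made up 59.8%, 49.5% and 67.6%, a mean of 59.0% ± 9.06. The share in CPM rested on Chil3, without which it was 33.2% ± 4.04, and on Plac8 in the other direction, without both of which it was 46.3% ± 3.31.

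On the per-length scale Lyz2 led the list in lung at 9346 ± 791 TPM (SD, n = 3). Apoe followed at 1152 ± 208, Chil3 at 774 ± 281, Plac8 at 697 ± 330, Lyz1 at 541 ± 100.2, Retnla at 324 ± 102 and Ear2 at 237 ± 36.5. Lyz2 lay above all others in every lung sample. Neighbours in that order overlapped across the lungs from Apoe down to Lyz1, and so did Retnla and Ear2, whereas Lyz1 lay above Retnla in every lung. The lowest were Cd163 at 4.45 ± 1.86 and Timd4 at 4.88 ± 1.84, which also overlapped. In the cell line the order was another, led by Plac8 at 660 ± 161, then Lyz2 at 64.4 ± 19.3, Cd14 at 57.6 ± 3.11, Pparg at 53.4 ± 11.4, Mrc1 at 40.9 ± 26.3 and Apoe at 20.7 ± 5.74, and there Plac8 lay above the rest while neighbours from Lyz2 down to Apoe overlapped.

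Pparg was lower in lung, and Plac8, Mrc1 and Gpnmb did not pass the threshold. Pparg, the nuclear receptor that alveolar macrophages and adipocytes require, had 18.5, 25.5 and 15.9 CPM in lung, against 43.2, 62.4 and 65.1 CPM in the cell line. Every lung value was below every cell line value, and Pparg fell by 1.51 on the log2 scale (SE 0.29, adjusted p = 0.00311), the one gene of the list that was lower in lung. Across the samples left out in turn, the log2 fold change of Pparg ran from -1.79 to -1.37.

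Plac8, a small cysteine-rich protein of monocytes, neutrophils and some carcinomas, had 226, 549 and 147 CPM in lung, against 197, 322 and 310 CPM in the cell line. The groups overlapped and lung replicate 2 held 2.94 times the mean of the other lungs. The log2 fold change of Plac8 was 0.15 (SE 0.49, adjusted p = 0.815). Its sign turned without lung replicate 2 (-0.63, adjusted p = 0.128) and without cell line replicate 1 (-0.055), and without both libraries Plac8 was lower in lung, at -0.76 (adjusted p = 0.0179, from 2 samples a group). In the fit without both, 5425 of the 15404 genes tested were lower.

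Mrc1, the mannose receptor of alveolar and tissue macrophages and of lymphatic endothelium, had 118, 47.5 and 127 CPM in lung, against 31.3, 163 and 172 CPM in the cell line. Lung replicate 2 and cell line replicate 1 were each the low sample of their group, at 0.386 and 0.187 times the mean of the others. The log2 fold change of Mrc1 was -0.32 (SE 0.62, adjusted p = 0.693), and without both libraries it was -0.45 (adjusted p = 0.00284, from 2 samples a group). That fit without both called 5425 of the 15404 genes tested lower.

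Gpnmb, a membrane glycoprotein of lipid-laden macrophages and of melanocytes, had 66.8, 28.8 and 80.4 CPM in lung, against 39.2, 1.73 and 1.79 CPM in the cell line. Cell line replicate 1 held 22.3 times the mean of the other preparations and lay above lung replicate 2. The log2 fold change of Gpnmb was 2.04 (SE 1.12, adjusted p = 0.167). Without cell line replicate 1 it was 5.04 (adjusted p = 0.00131), and the gene was then higher in lung, as were 5190 of the 15665 genes tested.

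**Figure D3:**
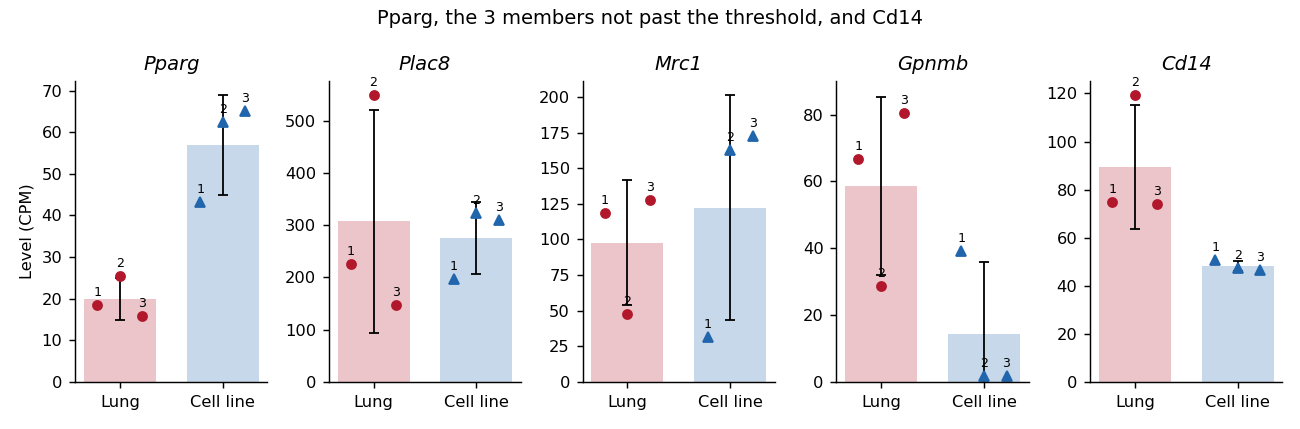
Level in CPM of Pparg, of the 3 genes not past the threshold and of Cd14, which had the smallest fold change of the 30 genes higher in lung, with bars for the group mean, whiskers for the SD and numbered points for the replicates, lung left of cell line in each panel. Pparg lies lower in all 3 lungs and Cd14 slightly higher, while for Plac8, Mrc1 and Gpnmb lung replicate 2 or cell line replicate 1 lies apart from its group and the groups overlap.

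Pparg has transcripts with separate starts, and their shares lay apart between lung and cell line. Pparg-201 starts downstream and encodes the longer protein of 505 residues, the form known from adipocytes, whereas Pparg-204 and Pparg-202 start upstream and encode 475 residues, by the coding lengths of GENCODE M21. The 120 bases before the annotated starts of Pparg-201 and Pparg-204 are shown because these are separate promoters of the gene, read from RefSeq windows on GRCm38.p6 at chr6:115421946-115422065 (downstream) and chr6:115362172-115362291 (upstream), both on the plus strand. All letters are in lower case because the PU.1 core was found in neither window.
Pparg downstream start: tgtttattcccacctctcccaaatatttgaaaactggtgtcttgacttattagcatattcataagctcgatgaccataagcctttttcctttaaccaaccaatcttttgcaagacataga
Pparg upstream start: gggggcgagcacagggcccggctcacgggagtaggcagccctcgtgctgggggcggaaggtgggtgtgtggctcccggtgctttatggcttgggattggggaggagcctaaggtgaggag
Pparg-201 took 19.9%, 42.3% and 30.0% of the estimated counts of the gene in lung, against 0.784%, 0.645% and 0% in the cell line. Each lung share was above each cell line share, a mean of 30.7% ± 11.2 in lung and 0.476% ± 0.418 in the cell line (SD, n = 3 each, two-sided exact permutation test, p = 0.1, the smallest that 3 against 3 can give). These shares rested on 92.3, 244.1 and 91.6 estimated counts of Pparg-201 in lung, against 7.3, 7.0 and 0 in the cell line.

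In an edgeR fit over 36200 single transcripts, added after the data had been seen, Pparg-204 was lower in lung, at a log2 fold change of -2.50 (SE 0.32, adjusted p = 0.00296), where 14% of transcripts were lower. Pparg-201 was higher, at a log2 fold change of 4.66 (SE 1.19, adjusted p = 0.0257), where 19.1% of transcripts were higher. Pparg-202 was lower, at a log2 fold change of -1.46 (SE 0.37, adjusted p = 0.0238), and that call was lost in 4 of the 6 fits with a sample left out. The call on Pparg-201 held without cell line replicate 3 and was lost without any other sample, with adjusted p-values of 0.0543, 0.0589 and 0.0574 without lung replicates 1, 2 and 3, and of 0.0670 and 0.0685 without cell line replicates 1 and 2. Lung replicate 2, which had the largest Pparg-201 share, also had the most Fabp4 and adipocyte marker RNA, and replicate 1 had the least of all 3. The part of adipocytes in that share was not tested.

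**Figure D4:**
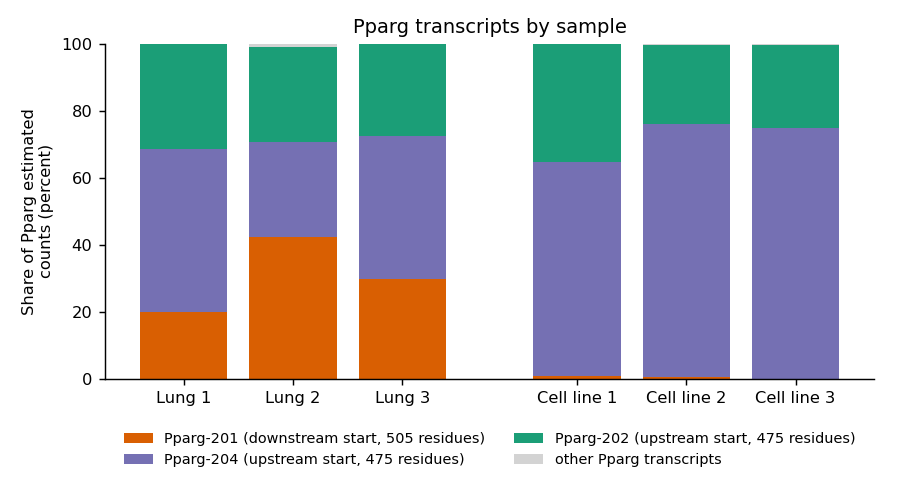
Share of the estimated counts of Pparg, in percent, taken by each transcript in every sample, lungs at the left and cell line preparations at the right. The orange part, Pparg-201 from the downstream start, covers 19.9% to 42.3% in lung and less than 1% in the cell line.

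Differences among the lungs followed transcript length. Lung replicate 2 was above both other lungs for 21 of the 34 genes and below both for 8. Its log2 deviation from the mean of the others had a median of 0.57 over the 19 genes of the shortest length quartile, 0.57 over 9 of the second, -0.61 over 4 of the third and -1.48 over 2 of the longest, with quartiles set over all tested genes. The medians over all tested genes were 0.76, 0.03, -0.49 and -0.998 in the same order. Across the 34 genes, which share the 3 lung libraries, deviation and length correlated with a Spearman coefficient of -0.641 and a Pearson coefficient of -0.713 on log2 length, as a description. The long genes Stab1, Mrc1, Gpnmb and Adgre1 were low in lung replicate 2, at 0.330, 0.386, 0.392 and 0.636 times the mean of the others. The short genes Plac8 and Fabp4 were high, at 2.94 and 5.39 times. Other short genes did not follow, with Retnla at 0.923 and Chil3 at 0.786 times.

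**Figure D5:**
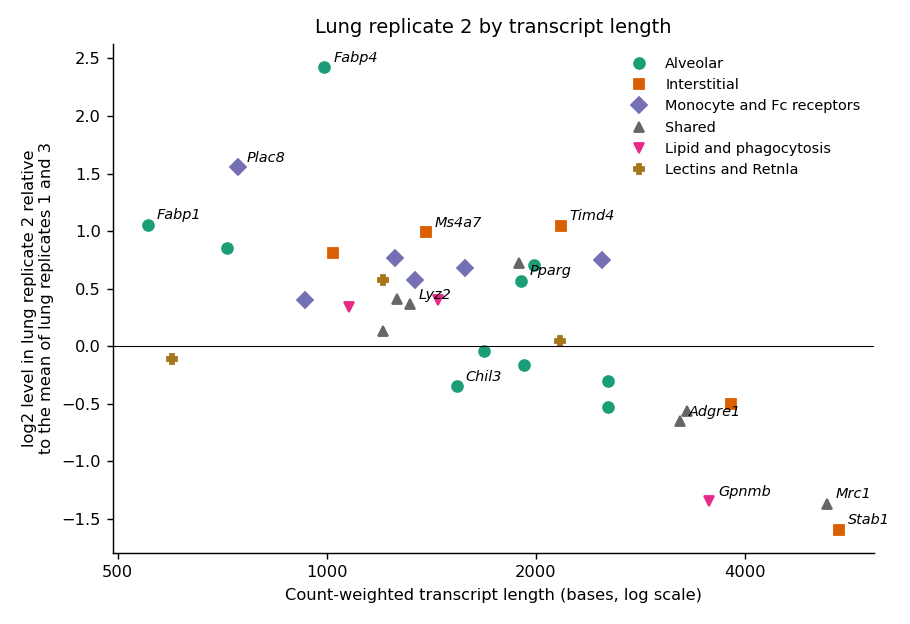
Log2 level in lung replicate 2 relative to the mean of lung replicates 1 and 3 (y axis, from CPM) against count-weighted transcript length in bases (x axis, log scale) for the 34 genes, with symbols for the groups. Short genes lie mostly above 0 and the longest, Stab1 and Mrc1, below -1, with Fabp4 the highest point.

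Within the cell line, most of these genes stood lower in replicate 3 than in replicate 2. Cell line replicates 2 and 3 were the closest pair of the series, and 21 of the 34 genes had 20 or more counts in the pair together. The ratio of scaled counts, replicate 3 over replicate 2, had a median of 0.784 over the 21 genes and a range of 0.392 to 1.06, with 17 below 1. The interval lay below 1 for 6 of the 21 genes and above 1 for Mrc1, and it included 1 for the others. The ratio was taken for listed genes only, so no share over all genes stands beside these counts. Lyz2 stood at 0.570 (95% exact interval 0.513 to 0.632), Apoe at 0.625 (0.512 to 0.762), Stab1 at 0.610 (0.377 to 0.974), Ly6c2 at 0.457 (0.253 to 0.801) and Timd4 at 0.392 (0.199 to 0.737), for counting error alone. Pparg stood at 1.04 (0.961 to 1.13), Gpnmb at 1.04 (0.616 to 1.75, from 34 and 30 counts), Cd14 at 0.988 (0.898 to 1.09), Mrc1 at 1.06 (1.01 to 1.11) and Plac8 at 0.960 (0.925 to 0.996). The median ratio was 0.535 over 7 B cell markers, of which 7 had an interval below 1, and 0.562 over 8 T cell markers, of which 6 did. The 4 epithelial markers had a median of 1.01, with 0 below 1. Over 24 markers of the other cell types with 20 or more counts, the median was 0.718 with a range of 0.312 to 1.60. Of these 24, 18 were below 1, 6 of them with an interval below 1. Those above 1 included Prf1 and Eomes, the 2 of 5 NK cell markers with enough counts, at 1.60 (0.627 to 4.40) and 1.28 (0.838 to 1.97). The other NK cell markers had fewer than 20 counts in the pair and were lower in replicate 3. In replicates 2 and 3, Gzma had 0.576 and 0.211 CPM, Klrb1c 0.518 and 0.263 CPM, and Ncr1 0.403 and 0.263 CPM. Over 39 genes of the wider lists described next, the median was 0.742, with 31 below 1, and Csf2ra and Cx3cr1 were the highest at 1.48 (0.885 to 2.51) and 1.45 (0.764 to 2.84). B cell markers summed to 170 to 320 CPM in lung, against 44.9 to 83.4 CPM in the cell line, and T cell markers to 164 to 198 CPM in lung, against 10.9 to 21.8 CPM in the cell line, with all 15 higher in lung and none at 0 counts in the cell line. Which cells the RNA of these genes in the cell line samples came from, the KP cells included, was not tested.

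Wider lists of genes with the same roles, none of them members, moved mostly the same way. Of 12 further alveolar macrophage genes 11 were higher in lung, with Lpl, which encodes lipoprotein lipase, at 179, 67.6 and 209 CPM in lung, against 2.05, 1.325 and 1.317 CPM in the cell line, and Itgax, which encodes CD11c, at 115, 52.5 and 145 CPM in lung, against 2.57, 2.42 and 1.58 CPM in the cell line. Their log2 fold changes were 6.59 and 5.57, and the median of the 12 was 5.18. Bhlhe41, a transcription factor that alveolar macrophages use, was lower in lung like Pparg, at 12.02, 8.40 and 12.1 CPM in lung, against 95.9, 115 and 123 CPM in the cell line. Its lung and cell line values were far apart, with a log2 fold change of -3.36 (SE 0.27, adjusted p = 5.14e-05).

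Of 12 further interstitial macrophage genes 11 were higher in lung and Mertk did not pass, at a median log2 fold change of 4.47. Cbr2, a carbonyl reductase also made by club and type 2 cells, had 815, 1291 and 1237 CPM in lung, against 0.0467, 0.0576 and 0.105 CPM in the cell line, and Selenop, a secreted selenoprotein, had 899, 978 and 849 CPM in lung, against 152, 89.8 and 75.6 CPM in the cell line. Of 12 further monocyte genes 10 were higher and Vcan and Nr4a1 did not pass, at a median of 3.13. Hp, which encodes haptoglobin, had 421, 596 and 615 CPM in lung, against 2.85, 0.806 and 0.211 CPM in the cell line, and Ace, which is also an endothelial enzyme, had 495, 143 and 607 CPM in lung, against 3.22, 4.26 and 3.16 CPM in the cell line. The part of those and of any other cells in the levels of the wider-list genes, Lpl and Hp included, was not tested.

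Of 13 further genes shared by macrophages 11 were higher in lung, Cebpb did not pass and Runx1 was lower, at a median log2 fold change of 4.16. Ctss, the lysosomal protease cathepsin S, had 540, 557 and 435 CPM in lung, against 10.5, 11.5 and 6.01 CPM in the cell line, and Laptm5, a lysosomal protein of blood cells, had 262, 245 and 343 CPM in lung, against 19.2, 18.3 and 9.90 CPM in the cell line. Runx1, a transcription factor of blood formation, had 60.9, 35.0 and 77.3 CPM in lung, against 122, 124 and 130 CPM in the cell line, with a log2 fold change of -1.12 (SE 0.32, adjusted p = 0.0192). Among the genes of these roles, the ones lower in lung were thus 3 transcription factors, Pparg, Bhlhe41 and Runx1, while the transcription factor genes Spi1, Irf8, Cebpa and Maf were among those higher.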

How the data were processed

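RNA of 3 Lung_KP and 3 CellLine_KP samples was sequenced from a stranded mRNA kit, per the labels' protocols, which also mention Nugen amplification. Estimated counts for each transcript were deposited by the authors, made with Salmon 1.4.0, with FastQC 0.11.9, DESeq2 1.32.0 and the build GRCm39 also named, per the submitters' processing notes. The annotation release is not given in the sources used here. Of 76776 transcripts, 76521 (99.67%) matched GENCODE M21, used for names and lengths only, and were summed to 20687 symbols and rounded. The 255 others held 0.11% to 0.42% of the counts. Lengths per sample are not in the table, so isoform use was not corrected for.

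Gene sums of all 6 samples were fitted with edgeR 4.0.16 in R 4.3.3 (robust quasi-likelihood F test, TMM scaling, the package's filter by group, group as the one term), adjusted by Benjamini-Hochberg over 15212 genes. Every adjusted p comes from edgeR unless another tool is named. The SE of an edgeR fold change is its absolute log2 value divided by the square root of the F statistic. CPM are given per sample or as mean ± SD. Genes at 0 counts in a group have their fold bounded by 3 counts over the group, and those with 1 to 3 counts an exact 95% interval. Intervals and bounds cover counting error only. Permutation tests used scipy 1.17.1. Promoters are RefSeq windows on GRCm38.p6, with no window used here for 7 of the 34 genes. The fit was tested on simulated data.

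The members and lists were chosen with earlier results of these data known. Values in every sample are given for members past the threshold at 10 CPM or more in the higher group, members lower in lung, members not past the threshold, the lysozyme pair and the Fc receptors. From each wider list the 2 called genes highest in lung by mean CPM, an order that transcript length affects, and every gene that fell are named, with the largest and smallest fold change of each member group. The other settings tried were library size alone, DESeq2 size factors, 2 other count filters, DESeq2 1.42.0, limma-voom (limma 3.58.1), a replicate block, a 2-fold minimum, and samples left out. The transcript fit, the adipocyte list and the share without Chil3 and Plac8 were added after the data had been seen.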

Additional observations from a re-analysis of the deposited data

How the results depend on the processing

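Of 462 values of the 34 genes over 14 alternatives, 449 kept their direction and their side of the threshold. Of the 34 genes, 29 did so in every alternative that fitted them. The exceptions were Timd4, Cd14, Plac8, Mrc1 and Gpnmb. The filter of 10 or more counts in all 6 samples removed 14 members, which have no value in that alternative. The fold change of Plac8 was 0.15 and became -0.049 under limma-voom, -0.029 under the replicate block, -0.63 to 0.49 with each sample left out in turn (-0.63 when lung replicate 2 and -0.055 when cell line replicate 1 was left out) and -0.76 without both. Gpnmb was higher under limma-voom (3.35, adjusted p = 0.0315). Leaving out each sample in turn gave 28 to 31 members higher and 1 lower (1 to 1), with 9 alveolar (9 to 9), 4 to 5 interstitial and 4 to 5 monocyte and Fc receptor genes higher, an alveolar share of 54.7% to 63.7%, and over all genes 4249 to 5190 higher and 1820 to 3773 lower, where the fit of all samples gave 4758 and 2664. With lung replicate 2 and cell line replicate 1 left out together, 3 members and 5425 of the 15404 genes tested were lower, and 2 samples a group remained. Requiring 10 or more counts in all 6 samples left 20 members, of which 16 were higher (3 alveolar, 3 interstitial, 3 monocyte and Fc receptor genes). Of the 11994 genes tested there, 2555 were higher and 1701 lower. With library size alone 1728 genes were lower and 75.1% of calls were higher, against 64.1%, and the median log2 fold change of all genes was 0.31, against 0.08. Leaving Chil3 out of the sums gave an alveolar share of 33.2%. Deviations of lung and cell line samples with the same number correlated at -0.05, 0.085 and -0.102, so the numbers were not taken to pair them. The fit with the replicate block gave 30 members higher and 1 lower, with 4634 genes higher and 2526 lower, and changed no call on a member. The transcript-level call on Pparg-201 was lost under it (4.94, adjusted p = 0.0640), as was that on Pparg-202 (-1.52, adjusted p = 0.0811). The causes of these changes were not tested. Depth limits the genes near 0 counts in the cell line, where the fold is a bound or a wide interval.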
